A study of Homo sapiens with 9 samples.

Results

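The insulin and IGF axis was examined in chromatin of HepG2, an established human cell line from a hepatocellular carcinoma, in which ARID1A, ARID1B, ARID2 and SNF5 had been mapped by ChIP-seq. These proteins are subunits of SWI/SNF, a complex that moves and evicts nucleosomes. A complex carries 1 of the 3 ARIDs, whereas SNF5 (BAF47, SMARCB1) is a core subunit. Every library came from untreated HepG2 chromatin cut with micrococcal nuclease, where 2 replicates were made per antibody beside 1 input library, and the labels name no other genotype or treatment. Reads of both replicates had been merged before peaks were called, so each antibody has 1 peak list with no replicate error, no test between antibodies was made, and how deeply each list was sequenced is unknown. A missing peak is therefore the absence of a call and not of the protein, and a subunit cannot be told apart from its antibody. The files hold no expression values, so the identity of the cells could not be checked against markers.

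The members were 9 genes chosen for their roles in growth and metabolic signalling, namely IGF2, H19, IGFBP1, IGFBP2, IGF1R, IGF2R, INSR, IRS1 and IRS2. A peak was counted for a member when its deposited nearest-gene entry equalled that symbol. This gave 15 of the 12852 ARID1A peaks, 15 of the 8728 ARID1B peaks and 14 of the 12995 ARID2 peaks, or 44 of 34575 peaks in all. The SNF5 list of 20718 peaks has no nearest-gene entry and was joined by position.

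Insulin and the insulin-like growth factors are secreted hormones that act through the receptor tyrosine kinases INSR and IGF1R. The activated receptors phosphorylate the adaptor proteins IRS1 and IRS2, which recruit phosphoinositide 3-kinase and so activate AKT. Liver is the main source of circulating insulin-like growth factors and of several of their binding proteins, and its production of IGFBP1 is repressed by insulin. IGF2 and H19 are neighbouring imprinted genes, and IGF2R, the cation-independent mannose 6-phosphate receptor, removes IGF2 from the cell surface for degradation.

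Binding at these genes is shown first as sequence, because the stretches differ in composition as well as in the subunits called there. All 7 are read from the plus strand of GRCh37, the assembly equivalent to hg19, and none touches an exon of the Gencode v44 annotation. Capitals mark matches, on either strand, to the 10 motifs searched, which were AP-1 (TGANTCA), forkhead (GTAAACA), the core of the insulin response element (CAAAACA), HNF4 (CAAAGTCCA), a part of the HNF1 site (GTTAATNA), C/EBP (TTGCNNAA), the GC box (GGGCGG), a part of the CTCF core (GGNGGCAG), a part of the NRF1 site (GCGCATGC) and the E-box (CACGTG). A match describes letters and is not a bound site.
IGFBP1, far upstream (chr7:45921601-45921801, shared by ARID1A and ARID1B peaks): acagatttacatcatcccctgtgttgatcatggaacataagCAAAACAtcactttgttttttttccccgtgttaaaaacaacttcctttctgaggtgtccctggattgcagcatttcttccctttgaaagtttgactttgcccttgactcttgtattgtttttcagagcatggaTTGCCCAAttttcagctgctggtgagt
IGFBP1, near upstream (chr7:45925147-45925265, shared by ARID1A and ARID2 peaks): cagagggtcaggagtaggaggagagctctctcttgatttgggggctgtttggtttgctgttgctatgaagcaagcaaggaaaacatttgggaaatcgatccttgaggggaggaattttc
IGF2R promoter (chr6:160389966-160390113, part of the ARID1B peak before the gene start): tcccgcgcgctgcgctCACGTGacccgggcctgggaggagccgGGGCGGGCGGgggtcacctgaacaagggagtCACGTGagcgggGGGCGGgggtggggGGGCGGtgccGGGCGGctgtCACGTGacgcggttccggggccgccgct
INSR promoter (chr19:7294426-7294538, part of the ARID1B peak before the gene start): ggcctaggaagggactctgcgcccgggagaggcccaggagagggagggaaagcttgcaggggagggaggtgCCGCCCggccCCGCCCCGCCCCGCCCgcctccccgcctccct
IRS1 upstream (chr2:227664969-227665153, an ARID2 peak without another ARID): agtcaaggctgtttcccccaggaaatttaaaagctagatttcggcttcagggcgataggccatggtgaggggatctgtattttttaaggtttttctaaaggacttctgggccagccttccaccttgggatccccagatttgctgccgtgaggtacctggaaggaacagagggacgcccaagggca
IGF1R intron (chr15:99214494-99214793, centre of an ARID1B peak without another ARID): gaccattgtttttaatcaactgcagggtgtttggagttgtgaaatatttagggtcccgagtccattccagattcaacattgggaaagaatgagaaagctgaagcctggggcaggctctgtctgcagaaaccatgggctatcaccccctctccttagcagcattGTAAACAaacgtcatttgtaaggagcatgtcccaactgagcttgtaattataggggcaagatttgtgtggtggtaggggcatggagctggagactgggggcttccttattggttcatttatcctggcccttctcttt
IGF2 internal (chr11:2158669-2158852, shared by ARID1A and SNF5 peaks): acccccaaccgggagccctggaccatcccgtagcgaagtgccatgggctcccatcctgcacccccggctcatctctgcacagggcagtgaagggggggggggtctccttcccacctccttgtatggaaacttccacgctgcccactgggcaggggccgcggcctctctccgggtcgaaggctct

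The promoter stretches of IGF2R and INSR were 79.1% and 77.9% G and C, and those of IGFBP1 were 40.3% (far) and 47.9% (near). The IGF2R stretch held 3 E-boxes and 5 GC boxes, counting overlapping matches, and the INSR stretch held 4 GC boxes. In windows of 300 bp centred on each peak, 3 or more E-boxes were present in 0.140% of ARID1A and 0.0687% of ARID1B peaks, so the density at IGF2R was uncommon in these lists. The far IGFBP1 stretch held the core of the insulin response element, which was present in 4.40% of ARID1A, 7.00% of ARID1B and 6.46% of ARID2 windows.

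Of the 9 genes, 5 had a peak in all 3 ARID lists (IGFBP1, IGF1R, IGF2R, INSR and IRS1). IGF2 had 1 ARID1A peak and no other, and H19, IGFBP2 and IRS2 had no assigned peak in any ARID list. Counted over the 8 members that code for protein, 6 had an ARID1A peak, 5 an ARID1B peak, 5 an ARID2 peak and 5 a peak in all 3 lists. Over 20149 protein-coding gene names, the shares with an assigned peak were 33.2%, 17.1% and 29.7%, and 10.1% had one in all 3 lists. These names were not limited to genes expressed in HepG2. Deposited names that matched no current symbol were not counted, so these shares may be too low. The study reported little ARID binding at transcripts that were not expressed. The genes fell into a group with many peaks and a group with few or none, as the plot of assigned peaks by gene shows.

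**Figure D1:**
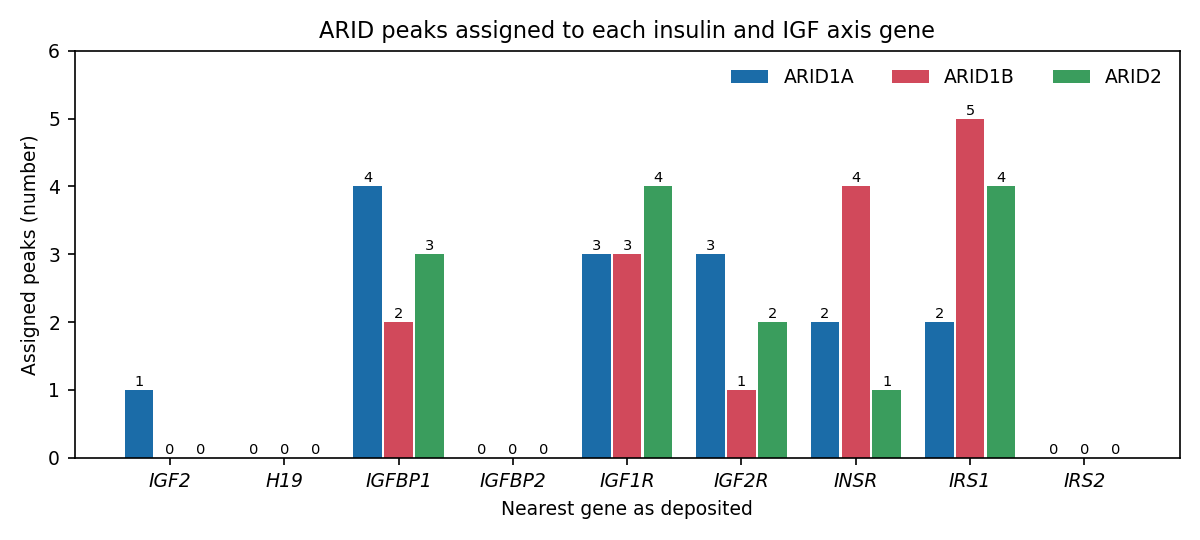
Number of peaks assigned to each gene (vertical axis) for the 9 genes (horizontal axis), with 1 bar for each ARID list and the number above it. IRS1 had 11 peaks in all, IGF1R 10, IGFBP1 9, INSR 7, IGF2R 6 and IGF2 1, and the other genes had 0.

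Summed over the 3 lists, IRS1 had 11 peaks, IGF1R 10, IGFBP1 9, INSR 7 and IGF2R 6. Among protein-coding names, 1.04% had at least 11 peaks, 1.33% at least 10, 1.79% at least 9, 3.29% at least 7 and 4.79% at least 6. The number of peaks of each ARID differed from gene to gene. ARID1B had the most peaks at INSR (4, against 2 of ARID1A and 1 of ARID2) and at IRS1 (5, against 2 and 4), ARID1A at IGFBP1 (4, against 2 of ARID1B and 3 of ARID2) and at IGF2R (3, against 1 and 2), and ARID2 at IGF1R (4, against 3 each of ARID1A and ARID1B). At least 5 ARID1B peaks were assigned to 0.486% of names, at least 4 ARID1A peaks to 1.59% and at least 4 ARID2 peaks to 2.10%. Some of these peaks were close neighbours from the same list. With such peaks joined up to 1000 bp apart, ARID1B kept its lead at INSR and ARID1A at IGFBP1. The leads at IRS1, IGF2R and IGF1R became ties, so the order of the ARIDs there depends on how peaks are split. The genes differ in length, from 5.30 kb for IGFBP1 to 316 kb for IGF1R, and the part of length in these counts was not tested.

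Among the ligands and their neighbours, IGF2 (chromosome 11, 2150342 to 2179621, hg19, minus strand) codes for insulin-like growth factor 2, and H19 (2016396 to 2025782, minus strand) gives a long noncoding RNA. The ARID1A peak assigned to IGF2, chr11:2158669-2158969, was 301 bp wide and belonged to the promoter class, 281 bp from the nearest transcription start site (TSS). IGF2 has several promoters, and this peak lay in an intron 20802 bp inside the gene start. Here and below, the gene start is the 5′ end of the Gencode v44 gene, and distances to it are from peak midpoints unless a nearest or end distance is named. It overlapped an SNF5 peak (chr11:2158418-2158852) with a score of 15, which stood at the 14.4th percentile of SNF5 scores. The score is a whole number from the peak caller, higher for stronger peaks, with a median of 19. The nearest ARID1B and ARID2 peaks lay 55324 and 52974 bp from the IGF2 gene start.

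Although no peak was assigned to H19, peaks assigned to other genes were called beyond its 3′ end. Within 5000 bp of the gene body there were 1 ARID1A peak (chr11:2011492-2011695, assigned to MRPL23-AS1) and 2 ARID2 peaks (chr11:2011854-2011960 and chr11:2012196-2012400, assigned to AC051649.6). These peaks were deposited in the promoter class, 441, 417 and 26 bp from the nearest TSS in the order given. All 3 lay within an SNF5 peak of 1322 bp (chr11:2011246-2012567, score 19), and none overlapped another ARID peak. No ARID1B peak lay in that window, and no list had a peak nearer to the H19 gene start than 13215 bp.

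The binding proteins differed from each other. IGFBP1 (chromosome 7, 45927959 to 45933259, plus strand) codes for a secreted protein that binds insulin-like growth factors, and it had 9 peaks, of which 7 were distal. The far upstream region, chr7:45921477-45921999, centred 6222 bp before the gene start, held 1 ARID1A peak (382 bp), 1 ARID1B peak (325 bp) and 2 ARID2 peaks (52 and 166 bp). The ARID2 peaks, chr7:45921505-45921556 and chr7:45921834-45921999, lay on either side of the stretch printed above for ARID1A and ARID1B, so that no base was inside peaks of all 3. An SNF5 peak of 641 bp (chr7:45921151-45921791) with a score of 28, at the 87.9th percentile, covered part of the region. A further ARID1B peak of 68 bp lay 6923 bp upstream, 80 bp from that SNF5 peak, without another ARID.

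Nearer to IGFBP1, the region centred 2795 bp upstream held an ARID1A peak of 119 bp entirely inside an ARID2 peak of 208 bp, and no ARID1B peak. It did not overlap SNF5, but an SNF5 peak of 125 bp lay 137 bp from the ARID1A peak. Immediately before the gene, an SNF5 peak of 1287 bp (chr7:45926462-45927748, score 21) ended 211 bp from the gene start and was not overlapped by any ARID peak. ARID1A alone was called inside the gene, at chr7:45928376-45928645 (promoter class, 412 bp from the TSS) and at chr7:45929567-45929772 (intron class). Thus at IGFBP1 peaks of different ARIDs met upstream of the gene, and of the ARID peaks the closest to the gene start was of ARID1A alone, 417 bp away edge to edge, farther than the SNF5 peak.

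IGFBP2 (chromosome 2, 217497551 to 217529159, plus strand), another secreted binding protein, had no peak of any list within 5000 bp. The nearest peaks to its start were of SNF5 at 60036 bp, ARID1B at 108955 bp, ARID1A at 133726 bp and ARID2 at 133901 bp.

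**Figure D2:**
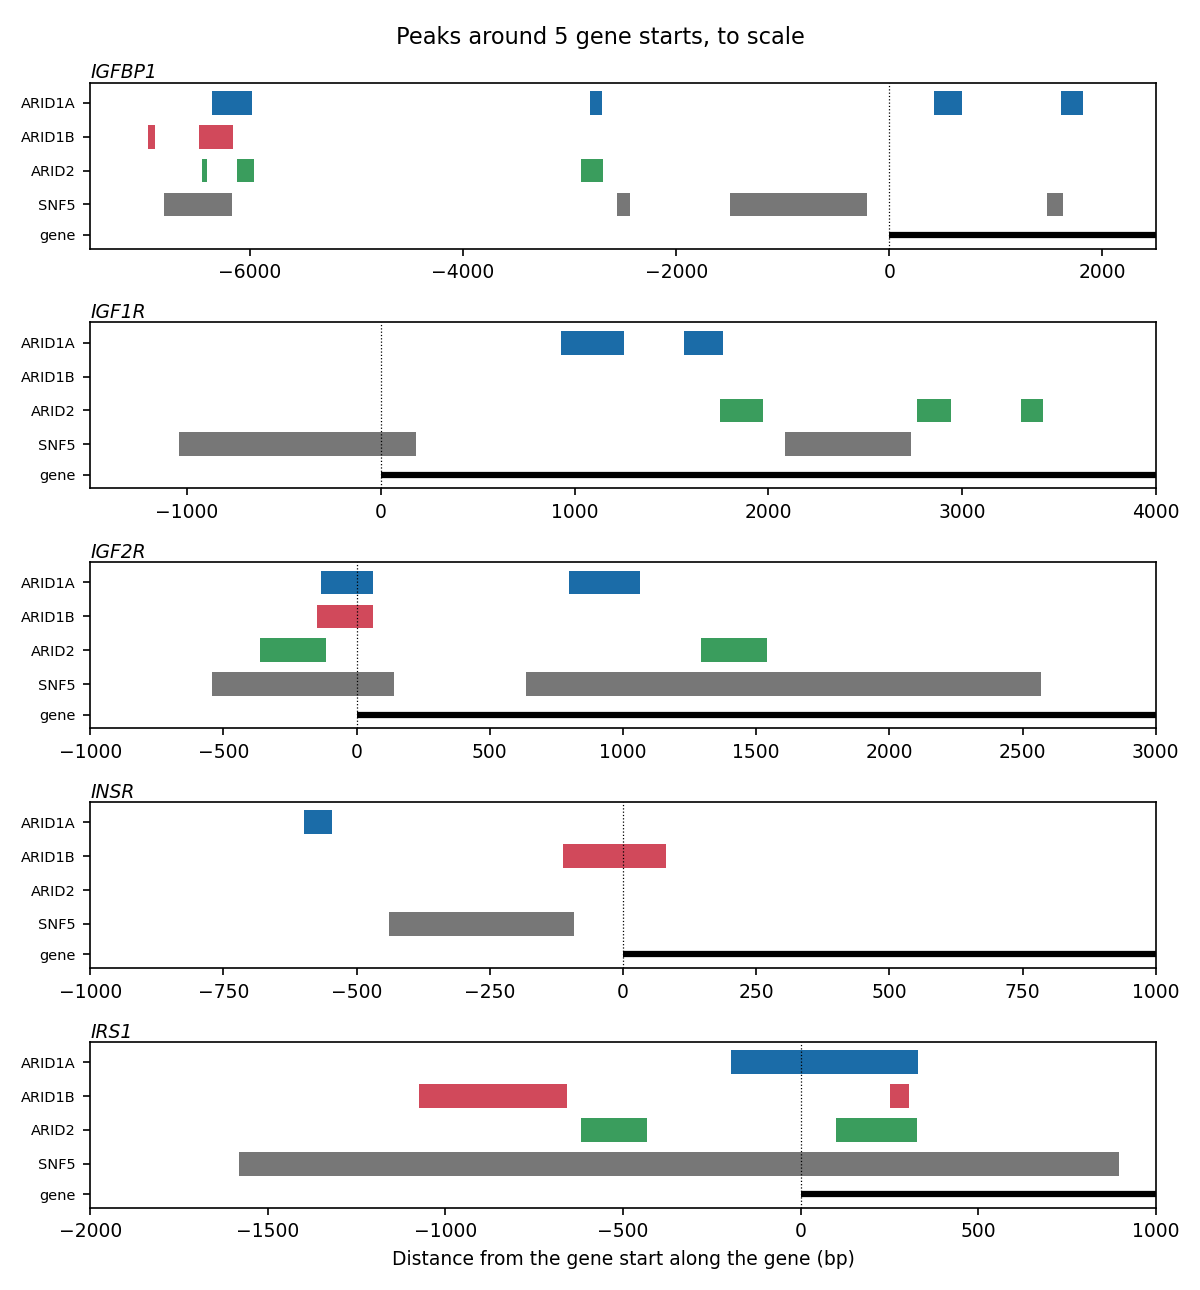
Peaks around the starts of 5 genes, drawn to scale, with distance from the gene start along the direction of transcription in bp (horizontal axis) and 1 row for each list. The black bar is the gene and the dotted line its start, taken from Gencode v44. ARID rows show only peaks assigned to the gene, whereas the SNF5 row was drawn by position. The ARID1A and ARID2 peaks near the IGF1R start that were assigned to RP11-35O15.1 are therefore not drawn. At IGFBP1 the peaks lay mostly upstream, at IGF2R and IRS1 peaks of all 3 ARIDs met at the start, and at INSR the ARID1A and ARID1B peaks were apart.

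The receptors were next compared. IGF1R (chromosome 15, 99191768 to 99507759, plus strand), the receptor for insulin-like growth factors, had 10 peaks, of which 3 were in the promoter class and 7 in introns. ARID1A peaks lay 1092, 1665 and 202584 bp from the gene start (distances to peak midpoints), ARID2 peaks 1864, 2853, 3360 and 15070 bp, and ARID1B peaks 21767, 22875 and 75778 bp. The ARID1B peaks thus lay apart from the others, whereas 2 ARID1A and 3 ARID2 peaks lay close together near the start. In the same order, deposited distances to the nearest TSS were 47, 620 and 22593 bp for ARID1A. They were 818, 1808, 2315 and 14024 bp for ARID2, and 20722, 21830 and 10392 bp for ARID1B. The first ARID1A peak covered the TSS of an IGF1R transcript in Gencode v44. Among the assigned peaks 1 pair met, an ARID1A and an ARID2 peak that shared 15 bp (chr15:99193521-99193535).

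The ARID1B peak at 22875 bp (chr15:99214255-99215032), the centre of which is printed above, was 778 bp wide, at the 98.0th percentile of ARID1B widths, and lay within an SNF5 peak of 1701 bp with a score of 21. It was the only 1 of the 10 IGF1R peaks to overlap SNF5. The other 9 lay 28, 87, 112, 203, 320, 564, 747, 6851 and 50778 bp from the nearest SNF5 peak, so that 7 of them were beside an SNF5 peak rather than within it. The gene start itself lay in an SNF5 peak (chr15:99190728-99191952, score 19) that overlapped an ARID1A peak (chr15:99190816-99191288) and an ARID2 peak (chr15:99190641-99190849). These belonged by nearest gene to RP11-35O15.1 and not to IGF1R, and they overlapped each other. Their nearest ends were 480 bp (ARID1A) and 919 bp (ARID2) from the IGF1R start. Of 8 SNF5 peaks within 5000 bp of the IGF1R body, 6 had no ARID peak.

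INSR (chromosome 19, 7112266 to 7294425, minus strand), the insulin receptor, had 7 peaks, and 0 of them overlapped another ARID. An ARID1B peak of 195 bp (chr19:7294344-7294538) covered the gene start, and an ARID1A peak of 53 bp (chr19:7294971-7295023) lay 572 bp before it. The ARID1A peak was at the 2.94th percentile of widths in its list. An SNF5 peak of 349 bp between them (chr19:7294516-7294864, score 17) overlapped the ARID1B peak and ended 106 bp from the ARID1A peak. In the introns, ARID1B was called 79918, 159200 and 160289 bp from the start (46516, 7823 and 8737 bp from the nearest TSS as deposited). The first and second of these overlapped SNF5. An ARID1A peak at 96142 bp and an ARID2 peak at 94856 bp were neighbours in the same part of the gene, the former within an SNF5 peak and the latter 138 bp from another. INSR therefore had peaks of all 3 ARIDs but no site where peaks of any pair met.

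IGF2R (chromosome 6, 160390114 to 160534539, plus strand) had 6 peaks, with 3 of them at the gene start. There, an ARID1A peak of 195 bp, an ARID1B peak of 211 bp and an ARID2 peak of 249 bp met within an SNF5 peak of 686 bp (chr6:160389571-160390256, score 18), and 22 bp were shared by all 3 (chr6:160389980-160390001, inside the stretch printed above). The ARID1A and ARID1B peaks spanned the gene start, whereas the ARID2 peak ended 113 bp before it. A second SNF5 peak, of 1936 bp and with a score of 26 (82.6th percentile), lay just inside the gene and held an ARID1A peak 929 bp and an ARID2 peak 1418 bp from the start, which did not touch. The remaining ARID1A peak, 73570 bp inside the gene, was 70937 bp from the nearest SNF5 peak.

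**Figure D3:**
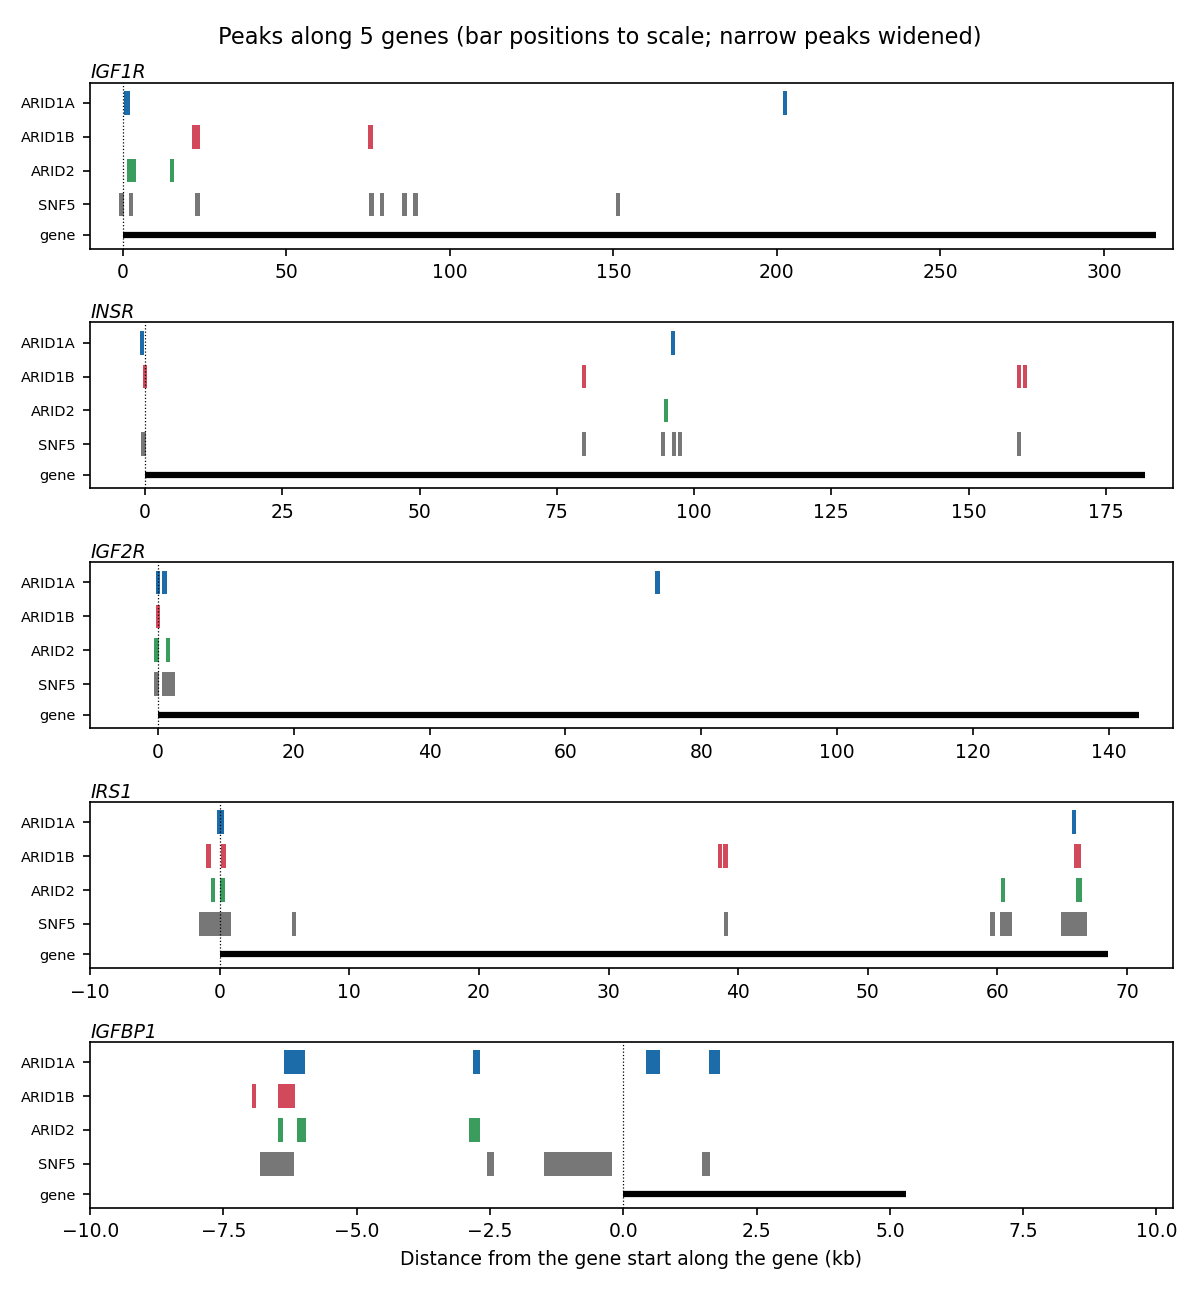
Peaks along 5 genes, with distance from the gene start in kb (horizontal axis, a separate scale for each gene) and 1 row for each list; narrow peaks are widened so that they can be seen. The black bar is the gene. ARID rows show only peaks assigned to the gene, whereas the SNF5 row was drawn by position. ARID1B and ARID2 peaks were separate along IGF1R and INSR, and peaks of all 3 ARIDs met at both ends of IRS1.

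Of the substrates, IRS1 (chromosome 2, 227596028 to 227664536, minus strand) had 11 peaks and IRS2 none. All 3 ARIDs met at 2 places in IRS1. Around the gene start, an ARID1A peak of 527 bp (chr2:227664206-227664732) contained an ARID2 peak of 230 bp and an ARID1B peak of 52 bp, and all 52 bp (chr2:227664232-227664283) were shared by the 3 lists. An SNF5 peak of 2478 bp (chr2:227663640-227666117, score 21), at the 97.3rd percentile of SNF5 widths, covered this region and 2 more peaks before the gene, of ARID2 alone (185 bp, printed above, 524 bp upstream) and of ARID1B alone (418 bp, 866 bp upstream). Alone here means that no base was shared with another ARID peak. With peaks joined up to 1000 bp apart, all 5 fell in a single region of the 3 ARIDs (chr2:227664206-227665611).

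The second meeting place, chr2:227598039-227598700, lay 66167 bp from the gene start. The deposited class was distal, but Gencode v44 places it in the 3′ untranslated region of IRS1. An ARID2 peak (403 bp), an ARID1B peak (511 bp) and an ARID1A peak (92 bp) lay there, with no base in all 3. The ARID2 and ARID1B peaks overlapped from 227598099 to 227598441, most of the ARID2 peak. The ARID1B and ARID1A peaks shared 1 bp, and the ARID2 and ARID1A peaks did not touch, so the region counts as holding all 3 ARIDs through that single base. The SNF5 peak over them (chr2:227597631-227599635) was 2005 bp wide with a score of 36, at the 97.0th percentile, the highest score among the SNF5 peaks at these genes. Between the ends of the gene, an ARID2 peak at 60404 bp and an ARID1B peak at 39020 bp overlapped SNF5, and an ARID1B peak at 38571 bp did not. In all, 10 of 11 IRS1 peaks overlapped SNF5.

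IRS2 (chromosome 13, 110405042 to 110438930, minus strand) differed from IRS1, since no list had a peak within 5000 bp of it. The nearest peaks to its start were an SNF5 peak at 308686 bp, an ARID1B peak at 469264 bp, an ARID2 peak at 774542 bp and an ARID1A peak at 775128 bp. The chromosome around IRS2 was thus without a call in all 4 lists over a longer distance than around IGFBP2 or H19.

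Overlap was then counted over the whole set. SNF5 overlapped 8 of 15 ARID1A peaks (71.3% of the whole list), 10 of 15 ARID1B peaks (62.9%) and 7 of 14 ARID2 peaks (67.2%). IGF1R held 9 of the 19 peaks without SNF5, and without that gene 24 of 34 peaks overlapped SNF5. Counting an SNF5 peak at most 1000 bp away gave 13 of 15, 15 of 15 and 13 of 14, against 86.3%, 76.0% and 86.2% of the lists. With so few peaks, several of them at the same gene, these counts are a description and no difference from the lists is drawn.

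Another ARID overlapped 6 of 15 ARID1A peaks (47.6% of the list), 4 of 15 ARID1B peaks (40.1%) and 7 of 14 ARID2 peaks (46.9%). By class, the overlaps were unevenly spread. Of 10 distal peaks, 9 overlapped another ARID, of 16 promoter peaks 8 did, and of 18 intron peaks 0 did. In the whole lists, intron peaks overlapped another ARID in 39.5% (ARID1A), 21.5% (ARID1B) and 28.3% (ARID2) of cases, distal peaks in 44.4%, 27.9% and 39.8%, and promoter peaks in 49.9%, 65.5% and 53.3%. The promoter count at these genes was thus near that of the lists, and the uneven spread was not tested. The distal peaks belonged to 2 genes, 7 to IGFBP1 and 3 to IRS1, and formed 4 regions, so they are not independent. Nor are the intron peaks, of which 7 belonged to IGF1R and 5 to INSR. The count of 0 also rests on the 1 bp rule. With peaks joined up to 1000 bp apart, intron peaks of IGF1R and IGF2R fell in regions with another ARID.

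Merging peaks that shared at least 1 bp gave 33 regions, of which 27 held 1 ARID, 2 held ARID1A and ARID2, and 4 held all 3. The same merging of all peaks gave 25247 regions, of which 74.7% held 1 ARID, 17.8% held 2 and 7.55% held all 3. Joining peaks up to 1000 bp apart left 21 regions at these genes, of which 14 held 1 ARID, 3 held 2 and 4 held all 3, against 56.6%, 28.6% and 14.8% of all regions. The 4 regions with all 3 ARIDs were the promoters of IRS1 and IGF2R, the far upstream region of IGFBP1 and the 3′ region of IRS1, and SNF5 overlapped each of them, as it did 97.4% of such regions in the lists. Only the 2 promoters had bases inside peaks of all 3. SNF5 overlapped 0 of the 2 regions with ARID1A and ARID2, 4 of 9 with ARID1A alone, 6 of 11 with ARID1B alone and 3 of 7 with ARID2 alone. The shares of these kinds over all regions were 87.6%, 55.1%, 44.5% and 48.5%. Seen from SNF5, 15 of 27 peaks within 5000 bp of a member overlapped an ARID, against 50.9% of the list. Their scores ran from 15 to 36, with a median of 18.

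**Figure D4:**
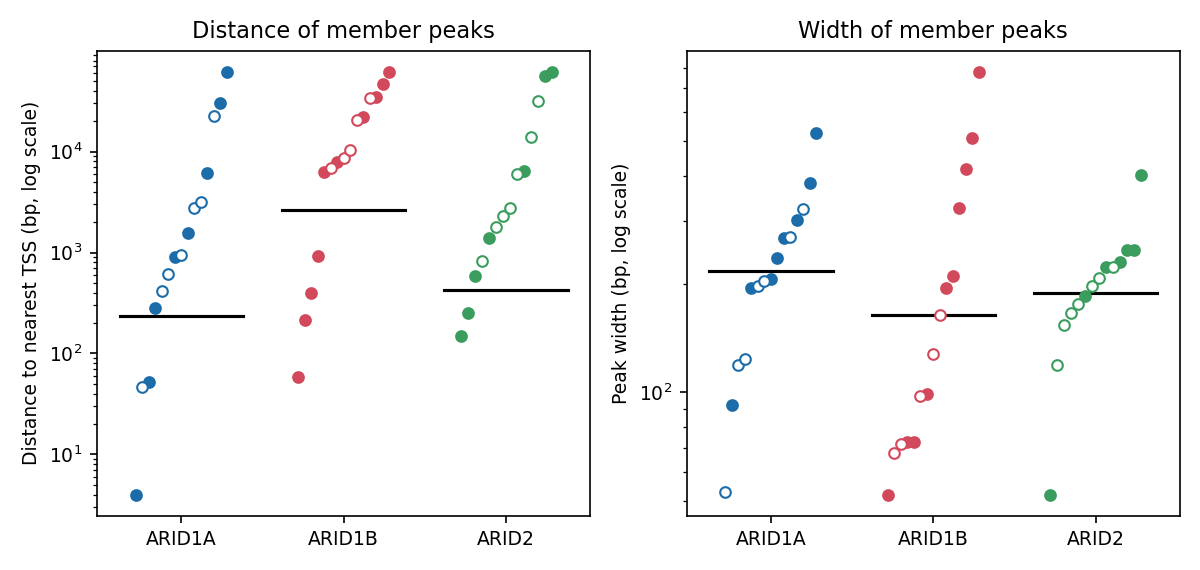
Distance to the nearest TSS (left) and peak width (right), both in bp on a log scale, for each peak assigned to the 9 genes, by ARID list. Filled points overlap SNF5, open points do not, and the black line is the median of the whole list. Median distances at these genes were 949, 8737 and 2552 bp for ARID1A, ARID1B and ARID2, each above its list, and widths were on both sides of the line.

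The median distance of the peaks from a TSS was larger at these genes than in each list. The promoter class held 8 of 15 ARID1A peaks (72.6% of the list), 4 of 15 ARID1B peaks (37.9%) and 4 of 14 ARID2 peaks (67.0%). Introns held 4, 8 and 6 peaks, where 12.9%, 33.9% and 17.5% of all peaks lay. Distal sites held 3, 3 and 4, where 12.6%, 25.8% and 13.6% lay, so for ARID1B the distal count at these genes (3 of 15) was near the share of its list. Median distances were 949, 8737 and 2552 bp, against 235, 2636 and 423 bp in the whole lists. Median widths were 206, 128 and 202.5 bp, against 218, 164 and 189 bp. In 300 bp windows, the median G and C content of the ARID1A, ARID1B and ARID2 peaks was 58.7%, 47.0% and 52.2%, against 63.7%, 51.0% and 56.7% for all peaks.

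Within the set, composition varied widely. Windows at the IGF2R promoter reached 79.3% and those at the INSR promoter 79.7% (ARID1B peaks), whereas the ARID1B windows in the IRS1 intron were 37.3% and 38.7% and the ARID1A window in the 3′ region of IRS1 was 36.0%. Introns were not uniform, since the ARID1A window in an INSR intron reached 76.7%. A GC box was present in 9 of 15 ARID1A, 3 of 15 ARID1B and 2 of 14 ARID2 windows, against 53.1%, 27.8% and 39.5% of all windows. Forkhead letters were present in 0, 3 and 1 windows (3.53%, 6.06% and 4.19% of all windows), C/EBP letters in 2, 4 and 3 (8.52%, 14.5% and 11.7%) and AP-1 letters in 0, 1 and 2 (6.49%, 9.70% and 6.87%). The insulin response element core was in 3, 1 and 2 windows, the part of the CTCF core in 3, 1 and 2 (19.8%, 14.9% and 15.4%), and the E-box in 3, 2 and 1 (7.99%, 5.24% and 7.30%). The HNF4, HNF1 and NRF1 letters were in none of these windows, and each of these motifs, counted singly, was in at most 4.40% of any list. Windows of overlapping peaks share bases, so a site can be counted for several lists.

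To place the 9 genes within their pathway, 44 further genes of insulin and IGF signalling were counted. ARID1A and ARID2 each had peaks at 24 of them (54.5%), and ARID1B at 13 (29.5%). Over all protein-coding names the shares were 33.2% for ARID1A, 29.7% for ARID2 and 17.1% for ARID1B. In all, 12 had a peak in all 3 lists (27.3%, against 10.1% of protein-coding names), 10 in 2 lists, 5 in 1 and 17 in none. The genes without a peak included the hormones INS and IGF1 and the binding proteins IGFBP3, IGFBP4, IGFBP5, IGFBP6 and IGFBP7, so that IGFBP1 was the only 1 of the 7 IGFBP genes examined with an assigned peak. IGFALS, which codes for the subunit that stabilises circulating growth factor complexes, had none either.

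**Figure D5:**
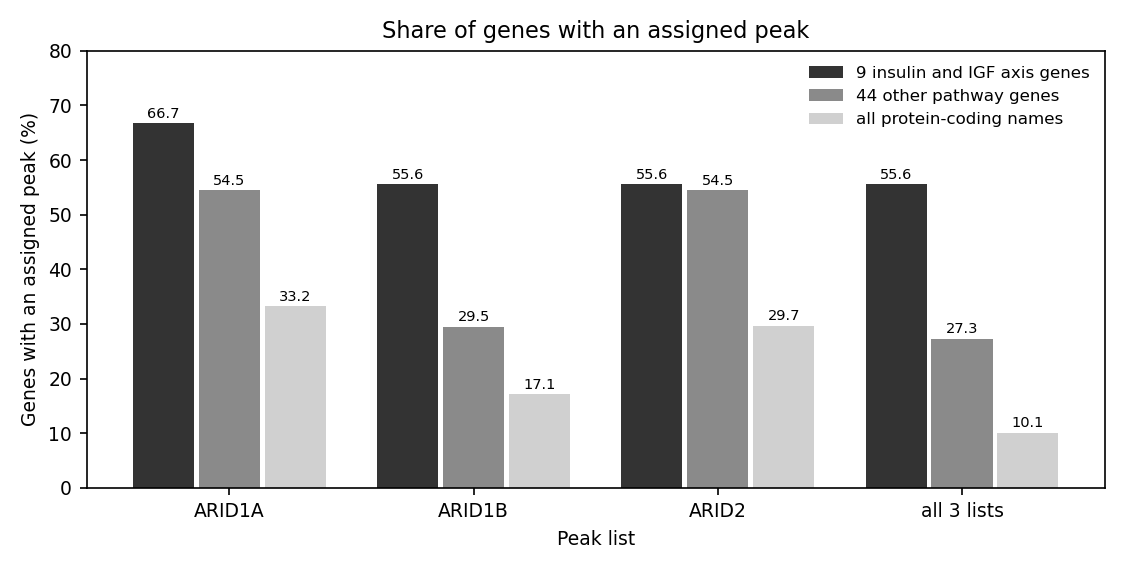
Share of genes with an assigned peak in % (vertical axis) in each ARID list and in all 3 lists (horizontal axis), for the 9 genes, the 44 other pathway genes and 20149 protein-coding names. In every list the share of the 9 genes and of the pathway genes lay above that of all names. The 9 genes include H19, which does not code for protein, and the names were not limited to expressed genes.

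The RNA-binding proteins IGF2BP1, IGF2BP2 and IGF2BP3, which bind IGF2 mRNA, had 15, 11 and 18 peaks summed over the ARIDs. FOXO3, a forkhead factor that AKT phosphorylates, had 4 ARID1A, 1 ARID1B and 6 ARID2 peaks, 11 in all like IGF2BP2. The kinase genes PDPK1 and GSK3B had 4 peaks each, as did the adaptor GRB2 and PHIP, which codes for a protein that binds IRS1. SHC1, another adaptor, and RPTOR, a subunit of the mTOR complex, had 5 each. These genes were named for having a peak in every ARID list, so their counts do not stand for the whole pathway list. Among protein-coding names, 1.04% had at least 11 peaks, and the shares at 4, 5, 15 and 18 peaks were not computed. Both gene sets were chosen with earlier results of these data known, and no test of the shares was made.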

How the data were processed

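Peak lists of 4 antibodies (ARID1A, ARID1B, ARID2, SNF5) from HepG2 were used. Per the study's methods, the authors aligned reads to hg19 with bowtie2, removed duplicates, merged replicates, called broad peaks with MACS2, joined close peaks and removed blacklisted regions. Nearest gene and feature class came from Gencode. The score deposited by the authors for SNF5 is a whole number, and the ARID lists hold none. Groups were taken from library titles, and the input library was not analysed here.

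Overlap meant at least 1 bp. Starts are printed counted from 1. Gene positions came from Gencode v44 lifted to GRCh37, and the background of 20149 protein-coding names also read older symbols through RefSeq synonyms (442, 221 and 411 names for ARID1A, ARID1B and ARID2). Of the deposited names, 80.3%, 70.1% and 78.6% were gene names of any type in Gencode v44. Names matched in neither way were left out of the background, whether coding or not. The overlap code was tested on simulated intervals. Scripts used Python 3.11.15, pandas 2.3.3 and numpy 2.4.6. No test was run, since each antibody has 1 list.

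The deposited chromatin state was not used. Between overlapping peaks of different lists it was the same in 38.3% to 51.4% of pairs (30.9% to 43.8% if unrelated), while the feature class was the same in 97.3% to 98.2%.

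The members and gene lists were chosen with earlier results of these data known. All 9 members were named, and of the pathway genes those with a peak in all 3 lists, up to 10 in alphabetical order. INS, IGF1, IGFALS and the IGFBP genes without a peak were named after their values were seen.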

Additional observations from a re-analysis of the deposited data

How the results depend on the processing

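Of 51 alternatives to 21 counts, 35 stayed within 1.5 times the count reported and 16 did not. With a reciprocal overlap of at least 50%, SNF5 matched 0 ARID1A, 0 ARID1B and 0 ARID2 peaks of these genes, and another ARID matched 3 ARID1A and 2 ARID2 peaks. SNF5 peaks are wider than ARID peaks, which that rule penalises. With a gap of at most 1000 bp, SNF5 matched 13 ARID1A and 13 ARID2 peaks and another ARID matched 7 ARID1B peaks, and merging regions at that gap left 21. With SNF5 peaks of at least the median score, 4 ARID1A and 6 ARID1B peaks overlapped SNF5. The widest 50% of peaks left 7 ARID1A, 7 ARID1B and 8 ARID2 peaks at these genes, of which another ARID matched 2 for ARID1A and 3 for ARID2. The count without IGF1R was chosen after seeing the data. The numbers of genes with a peak stayed within 1.5 times under every alternative tried for them. No paired analysis was possible because both replicates of each antibody were merged before peaks were called, and for the same reason no replicate could be left out.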
